A study of Mus musculus with 13 samples.

Results

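The comparison described here is the difference between 2 responses of mouse natural killer (NK) cells to the same stimulus: the response to anti-NK1.1 after culture in HD interleukin-15 (IL-15) minus the response in naive cells. It was formed from 11 of the 13 libraries of the series. For each gene, the step from unstimulated to anti-NK1.1 libraries in naive cells was subtracted from the same step in HD IL-15 cells, as (HD anti-NK1.1 minus HD unstimulated) minus (naive anti-NK1.1 minus naive unstimulated). Of 11543 genes tested, 1758 had a difference that passed the test, 833 with a higher and 925 with a lower response in HD IL-15 cells, which are 7.22% and 8.01% of the genes tested.

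All cells were splenic NK cells from wild-type C57BL/6 mice, and messenger RNA was sequenced. Naive cells gave 3 unstimulated libraries (replicates 1, 4 and 6) and 3 that followed 6 hours of anti-NK1.1 (replicates 1, 4 and 5). Cells kept for 72 hours in HD IL-15 gave 2 unstimulated libraries and 3 that followed 6 hours of anti-NK1.1. The labels do not spell out HD, give no culture time for naive cells, which the file header calls fresh, and do not say whether unstimulated cells were held for the same 6 hours. The group of naive anti-NK1.1 replicates 1 and 4 was taken from the titles, because their stimulation label names just a duration. Nothing in the labels ties replicates to separate animals or cultures, and p-values hence reflect a spread between samples that may be technical. In bulk samples, fewer cells of a type and less RNA per cell cannot be told apart.

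NK1.1 is an activating receptor of C57BL/6 NK cells, encoded by *Klrb1c*. It has no signalling tail of its own and pairs with an Fc receptor gamma chain, and its crosslinking starts a tyrosine kinase and calcium cascade that turns on cytokine genes and the release of cytotoxic granules. IL-15 signals through JAK kinases and STAT5, sustains NK cell survival and growth, and is known to prime NK cells for stronger effector functions and a more active metabolism.

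Levels are in CPM, each gene's share of a library's back-transformed sum scaled to parts per 1e+06. Differences are log2 values ± standard error from 1 limma model over all genes, with Benjamini-Hochberg adjusted p-values, and a gene was called at an adjusted p under 0.05. A positive difference means that the step upon stimulation was more upward in HD IL-15 cells. Quantile normalization removed each library's depth. Reads recovered from the order of values put the median gene at 112 to 222 reads in the 11 libraries, and 341 to 809 genes per library had no read. The file header gives library pools, with every naive library in pool 2 and every HD library in pool 1. Each response therefore lies within 1 pool, while pool and culture cannot be told apart where naive and HD levels are compared. NK identity was checked with 12 markers, all with reads in each of the 4 groups; 3 were called higher and 2 lower in the difference of responses, and 8 were called lower in each response. Of 3 measured T cell markers 0 were called in the difference of responses.

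The called genes were first sorted by what each response did on its own. In naive cells, 14.5% of tested genes were called higher and 14.7% lower after anti-NK1.1, and in HD IL-15 cells 15.9% and 17.2%. Among the 833 genes with a higher response in HD cells, 397 rose in HD cells without a call in naive cells, 208 fell in naive cells without a call in HD cells, and 110 fell in naive and rose in HD cells. A further 56 rose in both and more in HD, 27 fell in both and less in HD, and 35 were called in neither response. Among the 925 genes with a lower response, 419 fell in HD cells without a naive call, 270 rose in naive cells without an HD call, and 111 rose in naive and fell in HD cells. The remaining 67 fell in both and more in HD, 30 rose in both and less in HD, and 28 were called in neither. The response thus ran in opposite called directions for 221 genes. Unstimulated and stimulated libraries did not overlap for 42.4% of tested genes in naive cells and for 59.6% in HD cells, so a lack of overlap in 1 gene, as given below, is common. For comparison, 1289 genes were called in the same direction in both responses with no call of the difference, 595 upward and 694 downward.

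**Figure D1:**
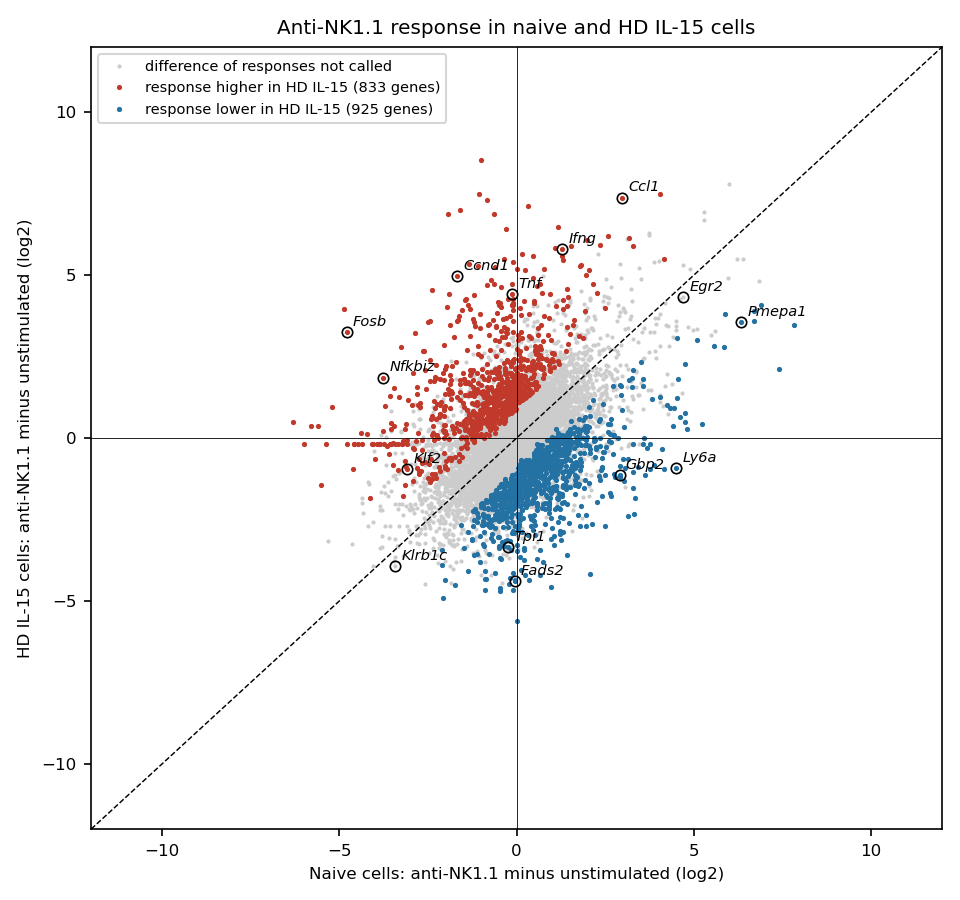
The log2 response to anti-NK1.1 of 11543 genes in naive cells (x axis) and in HD IL-15 cells (y axis), with the 833 genes with a higher response in HD in red, the 925 with a lower one in blue, and equal responses on the dashed line. *Ifng* and *Tnf* lie above the line, *Klrb1c* and *Egr2* close to it, and the row of red points just under 0 on the y axis holds genes with few or no reads in HD cells.

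**Figure D2:**
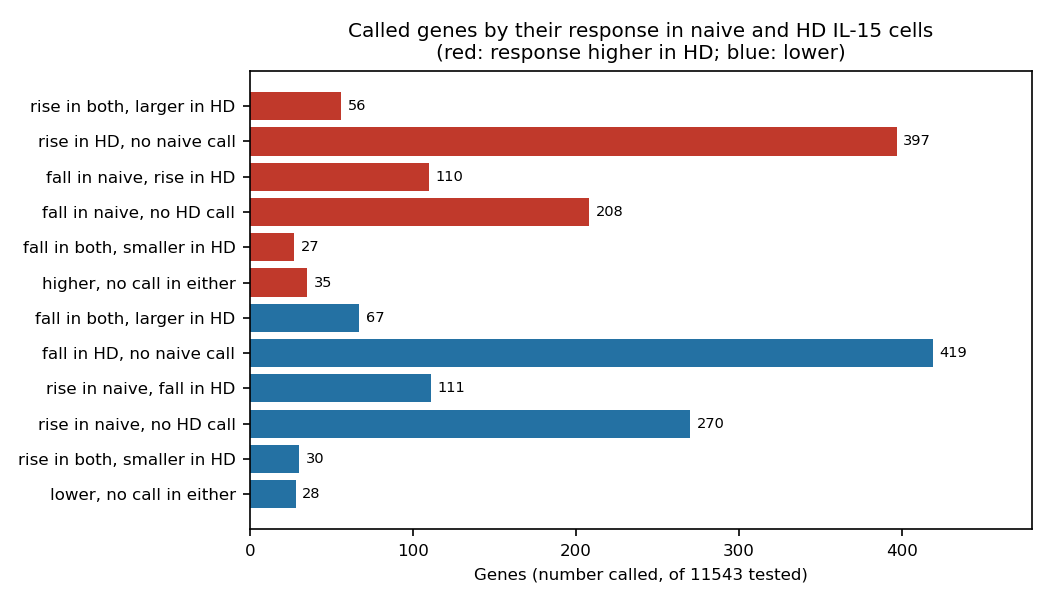
Number of called genes in each class of response, out of 11543 tested, with a higher response in HD in red and a lower one in blue. The largest class of each colour is a change in HD cells without a call in naive cells (397 rising, 419 falling).

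Genes of secreted effector molecules had more higher than lower calls. Of the list of effector cytokines and chemokines, 17 of 27 tested members were called higher and 2 lower, with a median difference of 3.06 (2.59 with a gene that has a group without reads set at 3 reads per library), against -0.02 over all tested genes. In naive cells 13 of the 27 were called higher and 3 lower after anti-NK1.1, and in HD cells 22 and 2.

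*Ifng*, which encodes interferon-γ, the main macrophage-activating cytokine of NK cells (chromosome 10, 118441046 to 118445892, plus strand), stood at 65.4, 91.5 and 91 CPM in the naive unstimulated libraries and at 190.4, 182 and 231 CPM in the naive stimulated ones, against 54.7 and 65.9 CPM in the HD unstimulated libraries and 3488, 3571 and 2989 CPM in the HD stimulated ones. The unstimulated libraries of both cultures lay in 1 range, the stimulated naive libraries stood above them, and all 3 stimulated HD libraries stood far above every other library. Its responses differed by 4.5 ± 0.34, adjusted p = 1.35e-06. The cytokine gene *Tnf*, for tumor necrosis factor (chromosome 17, 35199381 to 35202007, minus strand), stood at 10.3, 16.3 and 19.4 CPM in the naive unstimulated libraries and at 16, 10.1 and 15.5 CPM in the naive stimulated ones, against 5.69 and 5.2 CPM in the HD unstimulated libraries and 119.5, 120.4 and 112 CPM in the HD stimulated ones. Naive libraries with and without stimulation overlapped, and only in HD cells did the groups separate, with a difference of responses of 4.53 ± 0.42, adjusted p = 8.71e-06.

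The chemokine *Ccl9*, which acts through the receptor CCR1 (chromosome 11, 83572919 to 83578636, minus strand), stood at 72.1, 86.8 and 88.2 CPM in the naive unstimulated libraries and at 100.1, 80.7 and 92.4 CPM in the naive stimulated ones, against 11.8 and 10.5 CPM in the HD unstimulated libraries and 627, 621 and 469.5 CPM in the HD stimulated ones. It was lower in unstimulated HD than in unstimulated naive cells and highest in stimulated HD cells, with a difference of 5.52 ± 0.31, adjusted p = 1.48e-07. *Ccl1*, a ligand of CCR8, rose in naive cells from 13.6 ± 1.2 to 109.7 ± 29.2 CPM (SD, n = 3 each) and in HD cells from 45.2 ± 7.12 (n = 2) to 7546 ± 1342 CPM (n = 3), a difference of 4.41 ± 0.33, adjusted p = 1.16e-06. *Xcl1* (3.5 ± 0.47), which recruits cross-presenting dendritic cells, and the inflammatory chemokine genes *Ccl3* (3.06 ± 0.38) and *Ccl4* (2.56 ± 0.37) rose in both settings and more in HD cells. So did *Tnfsf4*, which encodes the costimulatory ligand OX40L (4.15 ± 0.54), *Il1rl1*, the receptor of interleukin-33 (2.88 ± 0.43), and *Mgll*, a monoacylglycerol lipase (4.75 ± 0.55). With anti-NK1.1, *Tnfsf4* (3.72 ± 0.36) and *Mgll* (3.58 ± 0.36) were higher in HD than in naive cells. *Il1rl1* was not (-0.46 ± 0.28, mean 15.1 against 20.5 CPM), and it had 10 reads over the unstimulated HD libraries. *Il23a*, the p19 subunit of interleukin-23, had 1 read over the unstimulated and 819 over the stimulated HD libraries, against 5 and 3 in naive cells. *Csf2*, the gene of the growth factor GM-CSF, did not pass the test (1.58 ± 1.06, adjusted p = 0.349, 95% interval -0.69 to 3.84); it had few reads in naive cells.

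Cytotoxic genes were divided. Of the granzyme, perforin and granule release list, 8 of 24 tested members were called higher and 2 lower, with a median difference of 0.97 (1.05 with the bounds for groups without reads). *Gzmb*, granzyme B, stood in naive cells at 222 ± 38.6 CPM without and 199 ± 43.2 with stimulation, and in HD cells at 1509 ± 147 and 2905 ± 138 CPM. Its difference lay just inside the threshold (1.11 ± 0.36, adjusted p = 0.0499) and missed it when any 1 of the 11 naive and HD libraries other than naive unstimulated replicate 1 or naive anti-NK1.1 replicate 5 was left out (adjusted p from 0.0702 to 0.157). *Gzmm*, granzyme M (3.0 ± 0.46), and *Nkg7*, a granule membrane protein needed for degranulation (2.1 ± 0.30), fell in naive cells (-2.41 ± 0.31 and -2.76 ± 0.20) and changed by 0.59 ± 0.35 (no call) and -0.66 ± 0.22 in HD cells. Mean *Gzmm* was already low in unstimulated HD cells (2.27 CPM, then 3.58 CPM), against 29.7 and then 5.51 CPM in naive cells. With anti-NK1.1, HD against naive cells was not called for *Gzmm* (-0.64 ± 0.31) and was higher for *Nkg7* (0.78 ± 0.20). *Serpinb9b*, of the family of granzyme B inhibitors, fell in naive cells and rose in HD cells (2.08 ± 0.32). Perforin gene *Prf1* (0.99 ± 0.61, adjusted p = 0.308, 95% interval -0.32 to 2.29) and *Gzma*, granzyme A (-0.39 ± 0.35, adjusted p = 0.49, 95% interval -1.14 to 0.35), did not pass.

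**Figure D3:**
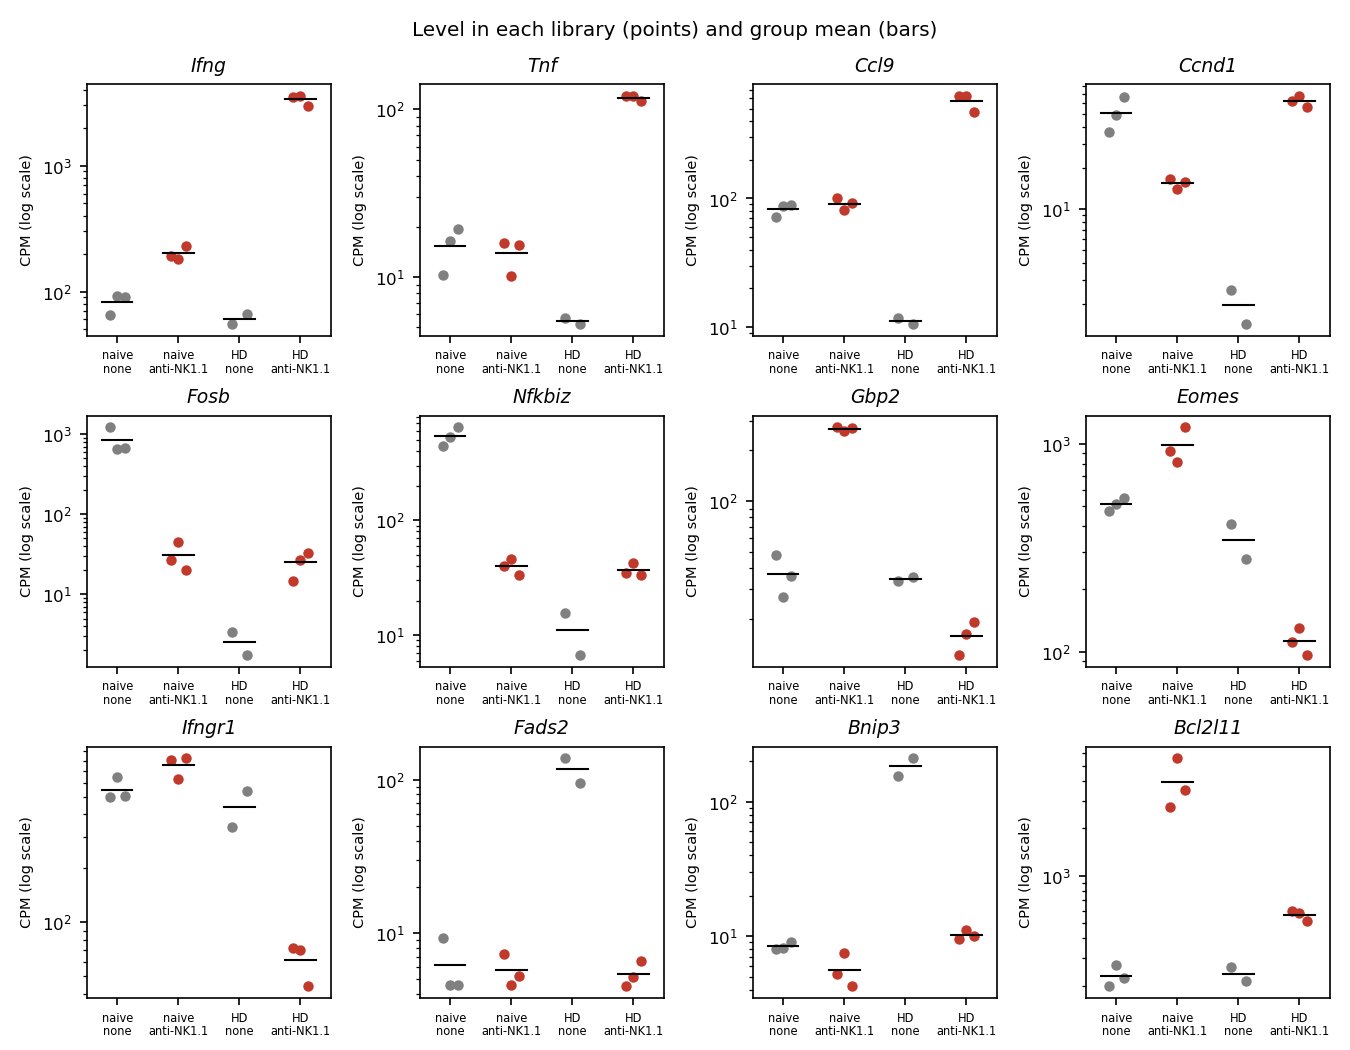
CPM in each library (points, log scale) and group mean (bars) for 12 genes in naive and HD IL-15 cells without stimulation (grey) and with anti-NK1.1 (red). *Ifng*, *Tnf* and *Ccl9* are highest in stimulated HD cells, *Fosb* and *Nfkbiz* fall in naive and rise in HD cells, and *Fads2* and *Bnip3* fall from a high level in unstimulated HD cells.

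Transcription factors of the immediate early response had more higher than lower calls. Of the AP-1, EGR, NR4A and NFAT list, 19 of 27 tested members were called higher and 2 lower, with a median difference of 2.06. In naive cells 14 of the 27 fell and 6 rose upon stimulation, and in HD cells 3 fell and 14 rose.

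*Fosb*, an AP-1 subunit (chromosome 7, 19302696 to 19310051, minus strand), stood at 1232, 651 and 663 CPM in the naive unstimulated libraries and at 26.8, 45.7 and 20.2 CPM in the naive stimulated ones, against 3.41 and 1.73 CPM in the HD unstimulated libraries and 14.6, 27.2 and 33.3 CPM in the HD stimulated ones. After stimulation the naive and HD libraries overlapped, and before it they lay far apart, with naive cells high and HD cells low. The difference of responses was 8.03 ± 0.59, adjusted p = 1.03e-06. *Atf3*, a stress-induced repressor and activator of the same bZIP family (chromosome 1, 191170296 to 191218039, minus strand), stood at 73.5, 62 and 62.5 CPM in the naive unstimulated libraries and at 45.9, 29.3 and 21.8 CPM in the naive stimulated ones, against 3.78 and 2.42 CPM in the HD unstimulated libraries and 102, 114 and 146 CPM in the HD stimulated ones. Here the stimulated HD libraries lay above all naive libraries, and the difference was 6.36 ± 0.40, adjusted p = 3.03e-07. *Fos* itself fell in naive cells (-2.71 ± 0.59) without a call in HD cells (0.94 ± 0.66); its difference (3.65 ± 0.89, adjusted p = 0.0128) missed the threshold without HD unstimulated replicate 1 (3.42, adjusted p = 0.0608). *Batf3*, a bZIP partner of JUN proteins, had 1 read over the unstimulated and 818 over the stimulated HD libraries, while its mean in naive cells went from 6.24 to 1.64 CPM. *Nr4a1*, an orphan nuclear receptor induced by antigen receptor signals, rose in HD cells (2.4 ± 0.23) and was not called in naive cells (-0.27 ± 0.21), a difference of 2.66 ± 0.31, adjusted p = 6.86e-05. Its mean rose in HD cells from 4.39 to 23.6 CPM, which stayed below the 157 and 131 CPM of naive cells without and with stimulation. *Irf4*, a factor of lymphocyte activation, rose in both and more in HD (2.18 ± 0.38, adjusted p = 0.00162). *Egr2*, a zinc finger factor downstream of calcium and NFAT, did not differ past the test: it rose by 4.69 ± 0.28 in naive and 4.32 ± 0.31 in HD cells, with a 95% interval -1.27 to 0.51 for the difference.

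Some inhibitors of NF-κB were among the genes that fell in naive and rose in HD cells. Of the list of NF-κB subunits and inhibitors, 8 of 18 tested members were called higher and 1 lower. In naive cells 8 of the 18 were called higher and 5 lower after anti-NK1.1, and in HD cells 13 and 0. *Nfkbiz*, an atypical inhibitor and coactivator (chromosome 16, 55811375 to 55838899, minus strand), stood at 443, 534 and 651 CPM in the naive unstimulated libraries and at 40.3, 45.9 and 33.2 CPM in the naive stimulated ones, against 15.4 and 6.64 CPM in the HD unstimulated libraries and 35.1, 42.5 and 33.4 CPM in the HD stimulated ones. Unstimulated naive libraries were the highest, both stimulated groups overlapped, and unstimulated HD libraries were the lowest, with a difference of 5.61 ± 0.41, adjusted p = 9.91e-07. *Nfkbia*, which encodes IκBα (3.61 ± 0.33), and *Tnfaip3*, the deubiquitinase A20 (2.79 ± 0.30), also fell in naive and rose in HD cells. The kinases *Plk2* (5.99 ± 0.44), *Plk3* (5.71 ± 0.34) and *Pim3* (3.31 ± 0.33), from a list of DUSP, RGS and kinase feedback genes with 11 of 26 tested members called higher and 2 lower, did the same. With anti-NK1.1, *Tnfaip3* was lower in HD than in naive cells (-1.91 ± 0.20) and *Nfkbia* was not called (0.09 ± 0.22). *Plk2* (2.15 ± 0.29), *Plk3* (1.51 ± 0.23) and *Pim3* (1.82 ± 0.22) were higher there.

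Further genes that fell in naive and rose in HD cells had other roles. *Ccnd1*, cyclin D1, which drives entry into the cell cycle (chromosome 7, 144929931 to 144939925, minus strand), stood at 36.9, 49 and 66.1 CPM in the naive unstimulated libraries and at 16.6, 14 and 15.7 CPM in the naive stimulated ones, against 2.53 and 1.41 CPM in the HD unstimulated libraries and 61.7, 67.4 and 55.8 CPM in the HD stimulated ones. Unstimulated naive and stimulated HD libraries overlapped at the top, and unstimulated HD libraries were the lowest, with a difference of 6.64 ± 0.40, adjusted p = 2.22e-07. *Bcl11a*, a transcriptional repressor of lymphoid progenitors, had no read in either unstimulated HD library. It was at least 79.5-fold higher after stimulation with the unstimulated libraries set at 3 reads each, and the difference of responses was then at least 7.09. Mean *Bcl11a* was 36.4 CPM in stimulated HD cells, against 41.2 CPM in naive cells without and 20.2 CPM with stimulation. With anti-NK1.1 it was higher in HD than in naive cells by 0.84 ± 0.24. *Csf1*, the macrophage growth factor M-CSF, had 3 reads in unstimulated and 194 in stimulated HD libraries and fell in naive cells (-2.37 ± 0.51). *Cd69*, the early activation marker, fell from 192 ± 24.3 to 52.4 ± 3.02 CPM in naive cells and rose from 30.9 ± 3.7 to 119.7 ± 19.6 CPM in HD cells (3.8 ± 0.30, adjusted p = 1.81e-06). *Cd160*, a receptor that enhances NK interferon-γ, did likewise (3.04 ± 0.39), as did *Klf4* (4.45 ± 0.29) and *Tbx21*, which encodes the effector factor T-bet (2.03 ± 0.32). With anti-NK1.1, *Klf4* (-2.64 ± 0.20) and *Csf1* (-1.65 ± 0.51) were lower in HD than in naive cells. *Cd69* (1.18 ± 0.20) and *Cd160* (1.98 ± 0.26) were higher there, and *Tbx21* was not called (0.00 ± 0.21). The endoplasmic reticulum chaperones *Hspa5* (2.49 ± 0.38) and *Dnajb9* (4.17 ± 0.33) belonged to a list with 8 of 23 tested members called higher and 0 lower.

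Promoters of 3 genes of this opposite class are shown because each holds a CRE core, the element bound by CREB and ATF factors; they come from RefSeq windows of 300 bases (250 before to 50 after a start site, build GRCm38.p6), of which 11799 covered 9246 tested genes. The capitals mark TGACGT on either strand, alone or in overlapping pairs. The stretches lie at chr1:191183286-191183391, minus strand for *Atf3*, chr13:110394932-110395093, plus strand for *Plk2* and chr4:117134040-117134145, minus strand for *Plk3*, and are written 5′ to 3′ along the gene.
Atf3: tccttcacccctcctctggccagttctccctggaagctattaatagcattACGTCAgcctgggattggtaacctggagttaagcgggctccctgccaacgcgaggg
Plk2: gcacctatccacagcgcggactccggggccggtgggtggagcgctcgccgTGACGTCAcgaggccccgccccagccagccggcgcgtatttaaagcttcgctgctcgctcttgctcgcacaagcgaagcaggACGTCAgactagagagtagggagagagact
Plk3: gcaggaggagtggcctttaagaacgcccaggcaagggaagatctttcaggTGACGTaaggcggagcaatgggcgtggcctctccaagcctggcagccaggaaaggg
The core was present in 20.2% of 124 windows of genes that fell in naive and rose in HD cells, in 20.8% of 48 windows of genes that rose in both and more in HD, in 21.9% of 32 windows of genes with a higher response and a call in neither, in 4.24% of 118 windows of genes that rose in naive and fell in HD cells, and in 11.7% of all windows. In the other classes with a higher response the share was nearer that of all windows or under it. It was 14.7% of 434 windows for a rise in HD without a naive call and 15.6% of 205 for a fall in naive without an HD call. For a fall in both that was smaller in HD it was 7.41% of 27 windows. The other classes with a lower response had 5.57% to 8.93%. Of 17 named genes with a window that fell in naive and rose in HD cells, 5 held the core. Windows of 1 gene can overlap, and a match describes the letters alone.

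A list of genes known to rise while tissue is taken apart into single cells also had higher calls: 14 of 21 tested members were called higher and 0 lower, with 17 of the 21 lower in naive cells after stimulation and 1 higher. Its summed level was 14597 to 15834 CPM in naive unstimulated, 6788 to 8522 in naive stimulated, 4978 to 5867 in HD unstimulated and 8047 to 9687 CPM in HD stimulated libraries. It shares 8 members with the AP-1 list, and its part in the difference of responses was not tested. Among the other members were the heat shock gene *Hspa1b* (2.32 ± 0.39) and, outside the list, the metal-binding metallothioneins *Mt1* (1.86 ± 0.38) and *Mt2* (3.08 ± 0.42), both lower after stimulation in naive cells.

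Where a difference of responses came from was read from the levels. Of the 833 genes with a higher response, 320 differed between HD and naive cells after stimulation and not before it (HD higher), 277 before and not after it (HD lower), and 107 at both times in opposite directions. A further 85 were lower in HD at both times, 32 higher at both and 12 different at neither. Of the 925 genes with a lower response, 384 differed after stimulation alone (HD lower), 266 before it alone (HD higher), and 96 at both times in opposite directions. Another 75 were higher in HD at both times, 85 lower at both and 19 different at neither. Over all tested genes, HD cells were called higher than naive cells for 16.6% and lower for 17.3% without stimulation, and for 21.1% and 22.4% with it. *Ifng* belonged to the first group, with a level in HD against naive cells of -0.44 ± 0.26 without and 4.06 ± 0.23 with stimulation. *Fosb* belonged to the second, at -8.33 ± 0.44 without and -0.30 ± 0.39 with it.

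**Figure D4:**
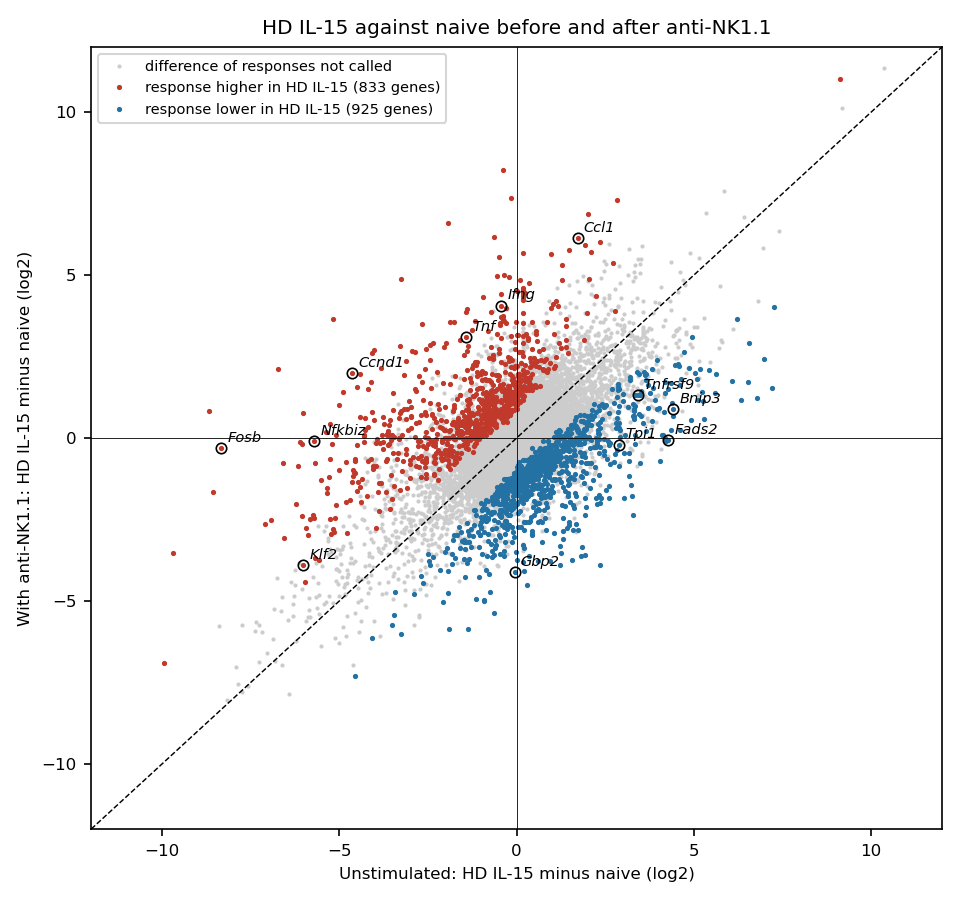
HD IL-15 minus naive level (log2) of 11543 genes without stimulation (x axis) and with anti-NK1.1 (y axis), coloured as called for the difference of responses, with equal differences on the dashed line. *Ifng* lies near 0 on the x axis and high on the y axis, *Fosb* and *Nfkbiz* far left near 0 on the y axis, and *Fads2* and *Bnip3* far right.

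Lists of lipid synthesis, glycolysis and hypoxia-inducible genes had more lower than higher calls. In each of them most members fell in HD cells, and the median member was higher in HD than in naive cells without stimulation. Of the cholesterol and fatty acid synthesis list, 0 of 29 tested members were called higher and 19 lower, with a median difference of -2.47. In HD cells 27 of the 29 fell upon stimulation, and in naive cells 4 fell and 4 rose. *Fads2*, the delta-6 fatty acid desaturase (chromosome 19, 10062765 to 10101746, minus strand), stood at 9.29, 4.6 and 4.6 CPM in the naive unstimulated libraries and at 7.36, 4.56 and 5.26 CPM in the naive stimulated ones, against 138 and 95 CPM in the HD unstimulated libraries and 4.49, 5.21 and 6.58 CPM in the HD stimulated ones. Both unstimulated HD libraries were above every other library, and the 3 other groups overlapped, with a difference of -4.35 ± 0.49, adjusted p = 4.45e-05. *Scd2*, a stearoyl-CoA desaturase, fell in HD cells from 465 ± 34.3 to 45.5 ± 7.95 CPM, and its level in naive cells was 84.5 ± 8.89 without and 60 ± 4.53 with stimulation (-2.87 ± 0.27, adjusted p = 1.03e-05). The sterol enzymes *Sc5d* (-3.27 ± 0.33) and *Msmo1* (-3.1 ± 0.29) rose in naive cells (1.29 ± 0.22 and 1.65 ± 0.19) and fell in HD cells (-1.98 ± 0.24 and -1.45 ± 0.22).

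Glycolysis and hypoxia-inducible genes followed. Of the glycolysis list, 1 of 21 tested members were called higher and 13 lower (median -1.47), and of the hypoxia-inducible genes outside glycolysis, 1 of 24 tested members were called higher and 13 lower (median -1.61). *Tpi1*, triosephosphate isomerase (chromosome 6, 124810586 to 124814296, minus strand), stood at 98.3, 100.3 and 116 CPM in the naive unstimulated libraries and at 93, 76 and 95.6 CPM in the naive stimulated ones, against 671 and 894 CPM in the HD unstimulated libraries and 80.6, 80.4 and 68.1 CPM in the HD stimulated ones. Unstimulated HD libraries were above all others, and the stimulated HD libraries overlapped the stimulated naive ones, with a difference of -3.09 ± 0.30, adjusted p = 1.26e-05. *Pfkl*, the liver-type phosphofructokinase (-3.46 ± 0.34), fell in HD cells without a naive call, and *Pkm*, pyruvate kinase (-2.24 ± 0.30), fell in both settings and more in HD. *Bnip3*, a mitophagy receptor (chromosome 7, 138890836 to 138909519, minus strand), stood at 8.09, 8.13 and 9 CPM in the naive unstimulated libraries and at 5.2, 7.45 and 4.22 CPM in the naive stimulated ones, against 156 and 211 CPM in the HD unstimulated libraries and 9.53, 11.2 and 10.1 CPM in the HD stimulated ones. Its unstimulated HD libraries stood far above the rest, with a difference of -3.53 ± 0.37, adjusted p = 2.78e-05. *Pygl*, glycogen phosphorylase (-2.78 ± 0.49), fell in both settings and more in HD. *Egln3*, the prolyl hydroxylase PHD3 that marks HIF-α for destruction (-3.73 ± 0.48), and *Mxi1*, an antagonist of MYC (-4.54 ± 0.68), fell in HD cells without a naive call. With anti-NK1.1, *Mxi1* was lower in HD than in naive cells (-2.82 ± 0.45). *Myc* itself rose in HD cells from 13.8 ± 0.896 to 56 ± 2.98 CPM without a call in naive cells (2.51 ± 0.33, adjusted p = 0.000209).

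For *Bnip3* (chr7:138909559-138909664, minus strand) and *Egln3* (chr12:54204049-54204124, minus strand) the promoter stretch with a HIF core, ACGTG on either strand, is shown because it is the element that hypoxia-inducible factors bind; capitals mark it, RefSeq windows and build as above. In *Bnip3* the core is read on both strands and forms an E-box (CACGTG).
Bnip3: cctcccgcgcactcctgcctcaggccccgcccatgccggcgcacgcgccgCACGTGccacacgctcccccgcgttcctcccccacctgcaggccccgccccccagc
Egln3: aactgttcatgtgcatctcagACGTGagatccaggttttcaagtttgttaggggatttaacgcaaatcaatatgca
The core was present in 50% of 30 windows of the glycolysis list, 53.1% of 32 windows of the hypoxia list and 25.5% of all windows of tested genes. It was also in 65% of 20 windows of the MYC and MAX network list, which had 4 higher and 4 lower calls, and in 46.7% of 15 windows of the list of cell cycle entry genes. Among windows of genes that fell in HD cells without a naive call it was in 21.6% of 449.

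Interferon-stimulated genes and cytokine receptors also had more lower than higher calls. Of the interferon-stimulated genes, 2 of 33 tested members were called higher and 10 lower. In naive cells 11 of the 33 were called higher and 7 lower after stimulation, and in HD cells 1 and 9. *Gbp2*, a guanylate-binding GTPase of cell-autonomous immunity (chromosome 3, 142620602 to 142638008, plus strand), stood at 48, 26.9 and 35.7 CPM in the naive unstimulated libraries and at 276, 260.3 and 271 CPM in the naive stimulated ones, against 33.4 and 35.5 CPM in the HD unstimulated libraries and 12.1, 16.2 and 19.1 CPM in the HD stimulated ones. Only the stimulated naive libraries were high, and the stimulated HD libraries were below all others, with a difference of -4.05 ± 0.34, adjusted p = 3.32e-06. *Gbp7* (-3.38 ± 0.30) went the same way, and *Iigp1*, an immunity-related GTPase (-4.04 ± 0.65), rose in naive cells without a call in HD cells. *Ifngr1*, the ligand-binding chain of the interferon-γ receptor (chromosome 10, 19591949 to 19610229, plus strand), stood at 503, 644 and 507 CPM in the naive unstimulated libraries and at 805, 630.0 and 827 CPM in the naive stimulated ones, against 343 and 542 CPM in the HD unstimulated libraries and 71.8, 70.4 and 43.9 CPM in the HD stimulated ones. The 3 stimulated HD libraries were below every other library, with a difference of -3.28 ± 0.35, adjusted p = 3.22e-05, so in HD cells *Ifng* rose while *Ifngr1* fell.

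Of the other cytokine receptors and STATs, 1 of 24 tested members were called higher and 9 lower, with a median difference of -1.20. *Il10ra*, a chain of the interleukin-10 receptor (-3.91 ± 0.34, adjusted p = 4.66e-06), rose in naive cells (1.82 ± 0.23) and fell in HD cells (-2.1 ± 0.25). *Stat3* rose from 281 ± 23 to 1435 ± 178 CPM in naive cells and stood at 256 ± 8.16 and 217 ± 11.2 CPM in HD cells (-2.59 ± 0.26, adjusted p = 1.56e-05). In the list of the IL-2 and IL-15 receptor, STAT5 and SOCS genes, 2 of 19 tested members were called higher and 3 lower. There *Bcl2l11*, which encodes the proapoptotic BIM (chromosome 2, 128126038 to 128162547, plus strand), stood at 198, 273 and 225 CPM in the naive unstimulated libraries and at 2739, 5604 and 3488 CPM in the naive stimulated ones, against 262 and 214 CPM in the HD unstimulated libraries and 594, 582 and 519.9 CPM in the HD stimulated ones. It rose in both settings, the stimulated naive libraries stood above all others, and the difference was -2.78 ± 0.37, adjusted p = 0.000201. The antiapoptotic gene *Bcl2l1* rose in HD cells (2.36 ± 0.21) without a call in naive cells (0.47 ± 0.19), a difference of 1.88 ± 0.28, adjusted p = 0.000501. *Il2ra*, the alpha chain of the interleukin-2 receptor, rose in both, and its difference did not pass (1.5 ± 0.64, adjusted p = 0.135, 95% interval 0.12 to 2.88) except without naive unstimulated replicate 1 (1.94, adjusted p = 0.0459).

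Factors of NK identity and receptors for positioning had more lower than higher calls. Of the NK lineage transcription factors, 4 of 22 tested members were called higher and 12 lower (median -1.31). *Eomes*, a T-box factor of mature NK cells (chromosome 9, 118478212 to 118486132, plus strand), stood at 473, 511 and 549.5 CPM in the naive unstimulated libraries and at 924, 815 and 1202 CPM in the naive stimulated ones, against 409.6 and 278 CPM in the HD unstimulated libraries and 111, 130.4 and 95.7 CPM in the HD stimulated ones. It rose in naive and fell in HD cells with no overlap within either setting (-2.52 ± 0.33, adjusted p = 0.000174), opposite in direction to *Tbx21*. *Cbfa2t3*, a corepressor, fell in both and more in HD cells, where it went from 212 ± 15.9 to 10.5 ± 2.18 CPM (-3.47 ± 0.30, adjusted p = 4.29e-06). *Zeb2*, which acts with T-bet in terminal maturation, rose in HD cells from 47.5 ± 1.07 to 614 ± 87.9 CPM without a naive call (3.97 ± 0.30, adjusted p = 1.16e-06). Its naive means were 406 CPM without and 338 CPM with stimulation. HD against naive cells was therefore -3.09 ± 0.22 for *Zeb2* without stimulation and 0.88 ± 0.20 with it. Of the trafficking receptors and integrins, 3 of 25 tested members were called higher and 9 lower. The chemokine receptors *Cxcr6* (-3.75 ± 0.33) and *Ccr2* (-3.28 ± 0.35) and the integrin *Itgb3* (-4.44 ± 0.37) rose in naive cells, and *Ccr2* and *Itgb3* fell in HD cells. *Cxcr3*, the receptor of interferon-induced chemokines, fell in both and more in HD (-3.2 ± 0.40). *Ly6a*, which encodes the surface antigen Sca-1, and *Cables1*, a regulator of cyclin-dependent kinases, rose in naive and fell in HD cells with differences of -5.43 ± 0.45, adjusted p = 3.22e-06 and -5.64 ± 0.43, adjusted p = 1.26e-06.

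Among NK receptors and adaptors, 5 of 36 tested members were called higher and 3 lower, and the fall in RNA of the ligated receptor did not differ past the test. *Klrb1c* (chromosome 6, 128778485 to 128789215, minus strand) stood at 614, 759.6 and 772 CPM in the naive unstimulated libraries and at 63.6, 69.6 and 64.3 CPM in the naive stimulated ones, against 502 and 589 CPM in the HD unstimulated libraries and 31, 42.1 and 35 CPM in the HD stimulated ones. It fell in both settings with no overlap, and the difference was -0.49 ± 0.27, adjusted p = 0.237 (95% interval -1.06 to 0.08). *Ncr1*, the natural cytotoxicity receptor NKp46 (1.87 ± 0.35), and *Klrg1*, an inhibitory receptor of mature cells (2.38 ± 0.34), fell in both and less in HD cells, as did the quiescence factor *Klf2* (2.12 ± 0.27). Mean *Klf2* went from 723 to 85.1 CPM in naive cells and from 11.1 to 5.66 CPM in HD cells. With anti-NK1.1, *Klf2* was lower in HD than in naive cells (-3.89 ± 0.18), *Ncr1* was not called (0.18 ± 0.23) and *Klrg1* was higher (1.06 ± 0.23). *Lat*, a signalling adaptor, fell in naive cells without a call in HD cells (2.92 ± 0.36). *Fcgr3*, the Fc receptor CD16 that mediates antibody-dependent killing, fell in HD cells from 209 ± 1.23 to 28.5 ± 2.91 CPM and was not called in naive cells (-3.03 ± 0.28, adjusted p = 9.58e-06). *Klrb1b*, which encodes an inhibitory receptor, rose in naive and fell in HD cells (-2.94 ± 0.32); members of the Klrb1 family are similar in sequence and can share reads.

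Of the activation, costimulatory and checkpoint receptors, 8 of 24 tested members were called higher and 2 lower. *Tnfrsf9*, the costimulator 4-1BB, rose by 2.97 ± 0.19 in naive cells, from 80.2 ± 8 to 626 ± 29.3 CPM, and by 0.87 ± 0.21 in HD cells, from 861 ± 184 to 1564 ± 189 CPM. Its log2 difference was -2.1 ± 0.28, adjusted p = 0.000223, while in CPM the step was larger in HD cells by 157, where the starting level was also higher. *Pmepa1*, a target and inhibitor of TGF-β signalling, rose in both and less in HD cells (-2.78 ± 0.44, adjusted p = 0.000831). Amino acid and serine genes of the ATF4 response rose nearly throughout in both settings, 20 of 23 in naive and 21 in HD cells, and 3 had a higher and 7 a lower response in HD.

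Several groups had 7 or fewer calls of the difference each. Ribosome biogenesis had 2 of 27 tested members called higher and 0 lower and the respiratory chain and ATP synthase 1 of 29 tested members called higher and 0 lower, near or under the share over all genes. The S phase list had 0 of 28 tested members called higher and 7 lower, and the G2/M list 0 of 26 tested members called higher and 3 lower. The share called lower was above the 8.01% of all genes in the S phase list and nearer to it in the G2/M list. Both lists fell in both settings, with 18 of 28 and 16 of 26 called lower in naive cells and 23 and 24 in HD cells. *Mcm6*, a subunit of the replicative helicase, rose in naive and fell in HD cells (-3.28 ± 0.27, adjusted p = 2.86e-06). It was the only 1 of the 28 S phase members called higher in naive cells. The proliferation marker *Mki67* did not pass (-0.51 ± 0.44, adjusted p = 0.477, 95% interval -1.44 to 0.43). *Ccnd2*, cyclin D2, rose in HD cells from 1368 ± 90.4 to 4586 ± 377 CPM and stood at 1484 ± 158 and 1446 ± 111 CPM in naive cells (1.78 ± 0.31, adjusted p = 0.00141).

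**Figure D5:**
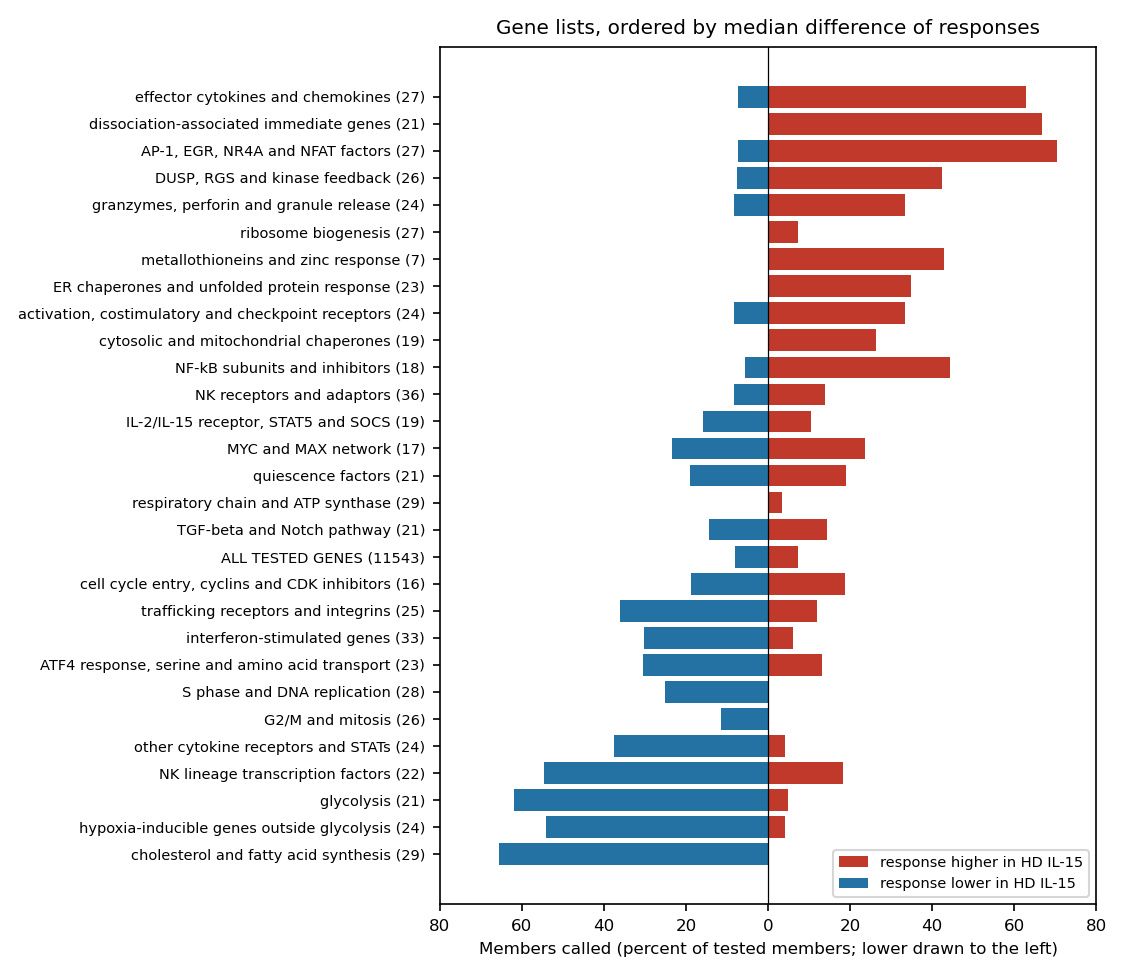
Share of the tested members of 28 gene lists called with a higher (red, right) or lower (blue, left) response in HD IL-15 cells, ordered by median difference, with the number tested in brackets. Effector cytokines and chemokines have 17 of 27 members higher, and cholesterol and fatty acid synthesis has 19 of 29 lower, against 7.22% and 8.01% of all genes.

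Markers of other cells were checked last. B cell markers summed to 8.49 to 15.8 CPM in naive unstimulated and 1.43 to 4.17 in naive stimulated libraries, and to at most 0.868 CPM in HD libraries, with 4 of 5 measured members at 0 reads in HD unstimulated cells. One of them, *Cd22*, was called with a higher response in HD, where it had 0 and 2 reads. Of 8 basophil and mast cell markers, the mast cell receptor genes *Fcer1a* and *Ms4a2* were called higher with 0 reads in every HD library, and *Kit* lower (-2.79 ± 0.56). *Fcer1a* (adjusted p = 0.0391) missed the threshold without any 1 naive unstimulated or HD library or LD replicate 3 (adjusted p from 0.0509 to 0.103). The list summed to 128 to 298 CPM in naive and 64.6 to 104 CPM in HD libraries, where *Kit* alone stood at 72.4 ± 6.49 CPM without and 68.4 ± 22.3 with stimulation, and 4 and 2 of the 8 members had 0 reads. Of 15 macrophage, monocyte and dendritic cell markers 1 was called, *Ccr2*, lower. That list summed to 886 to 1209 CPM in naive unstimulated, 1660 to 2026 in naive stimulated, 1930 to 2290 in HD unstimulated and 496 to 682 in HD stimulated libraries. *Ccr2* alone stood at 532, 1307, 1937 and 504 CPM in the means of these groups. The median HD minus naive difference of the 15 without stimulation was -1.60, and 3 members had 0 reads in HD unstimulated and 2 in HD stimulated cells, against 0 in either naive group. Of 3 measured neutrophil markers 0 were called, and of 5 tested markers of other innate lymphoid cells *Il1rl1* was called higher and *Il7r* and *Rora* lower. Of 9 erythroid and platelet markers, *Car2*, a carbonic anhydrase, was called lower (-1.64 ± 0.51, adjusted p = 0.0442) but not without any 1 HD or LD library, naive unstimulated replicate 1 or 4 or naive anti-NK1.1 replicate 4 (adjusted p from 0.0544 to 0.168). In all, 23 called genes had no read in any HD library and 161 had a group with 3 reads or fewer; for these the difference describes naive cells or rests on few reads. The part of other cells in the difference of responses was not tested.

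The design resolves large differences. The median half-width of the 95% interval of a difference was 0.96 on the log2 scale, and the median size among called genes was 1.85. With 2 HD unstimulated libraries, a gene without a call was not shown to respond alike in both settings.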

How the data were processed

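RNA of 13 mouse NK cell samples was sequenced, and the deposited table held 11989 genes. Libraries were strand-specific and pooled after first-strand synthesis, per the labels' protocols. The build was mm10 per the submitters' processing notes; the aligner, counting tool and annotation are not given in the sources used here. The deposited values are log2 of quantile-normalized counts plus 1, a unit read from the values: they ran from 0 to 17.92, once sorted, the libraries' values were almost the same (median spread 0.009), and 91.6% of back-transformed values under a log2 of 6 were multiples of 1/13 within 0.05, a tolerance on the value times 13. Quantile normalization forces 1 distribution on every library, so changes are relative to the other genes.

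Because the unit was log2, limma 3.58.1 in R 4.3.3 was fitted to the values as deposited: 5 groups, all 13 libraries, no covariate, empirical Bayes moderation with trend (degrees of freedom 8 residual, 6.3 prior). The 2 LD libraries entered through the spread alone. Of the genes, 446 that did not reach a back-transformed value of 10 in 2 or more libraries were dropped, leaving 11543. The difference of responses was tested two-sided and adjusted over all tested genes (Benjamini-Hochberg, threshold 0.05).

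Reads were recovered from the order of the distinct values of a library, which stand for 0, 1, 2 and more reads up to rank 7000 by level; counts of reads above that rank are scaled estimates. Where a bound is given, groups without reads were set at 3 reads per library. Floors and intervals of reads cover counting error only.

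Called genes were put in 12 classes by the sign and call of each response. Named genes are the 4 largest differences of each class with a mean of at least 20 CPM in a group, up to 3 called members of each list, and a fixed panel; some are not printed. Members, lists and tests were chosen with earlier results of these data known, so lists are described by counts and medians and have no test. Coordinates come from the GENCODE vM21 annotation of mm10, which held 11983 identifiers. On simulated data with 200 of 11543 genes changed, the test of the difference recovered 6.8%, 53.6%, 82.4% and 90.8% of genes changed by 1, 2, 3 and 4 on the log2 scale, and 6.7% of calls were false. The simulated noise was independent and normal with the spread of the fitted model, and far fewer genes were changed than the 1758 called. These shares therefore describe the simulated setting and need not hold for the data. Plots used Python 3.11.15 and matplotlib 3.10.9.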

Additional observations from a re-analysis of the deposited data

Results flagged for a closer look

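Each of the following results marks a response to anti-NK1.1 that differed between HD IL-15 and naive cells by the test of the difference itself. The response was higher in HD cells for 833 genes and lower for 925. By direction of the separate responses, 56 genes rose in both and more in HD, 397 rose in HD without a naive call, 110 fell in naive and rose in HD, 208 fell in naive without an HD call, 27 fell in both and less in HD, and 35 had a call in neither response. On the other side, 67 fell in both and more in HD, 419 fell in HD without a naive call, 111 rose in naive and fell in HD, 270 rose in naive without an HD call, 30 rose in both and less in HD, and 28 had a call in neither.

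A signal also appeared in libraries outside the comparison. *Ifng* stood at 342 and 617 CPM in the LD IL-15 anti-NK1.1 libraries, above every unstimulated naive and HD library and below the stimulated HD libraries; no unstimulated LD library was analysed here.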

How the results depend on the processing

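The 833 higher and 925 lower calls stayed within 1.5 times of their number under no filter, a stricter filter, robust moderation, no variance trend, the 4 groups alone, library pool as a term, median scaling, an offset of 8 and limma-voom on recovered reads, and, added after the data had been seen, with genes of at least 10 reads in each of the 4 groups or without either LD library. Each response lies within 1 pool, so the pool term could not change the size of a difference. Median scaling shifted libraries by just -0.049 to 0.053, as they were already quantile-normalized. Neither setting is therefore an independent check. Leaving out each of the 11 libraries gave 563 to 768 higher and 621 to 857 lower calls; without 1 HD unstimulated library the other is assumed to vary like the remaining groups. Tested against a fold change of 1.5, 337 and 324 genes were called. With a replicate block, 429 and 427 were called, and 119 of the 128 named genes kept their side of the threshold. Same-numbered libraries had correlations of deviations of -0.011, -0.045, -0.143 and 0.033. These values cannot tell whether the numbers pair the samples. Deviations from the mean of so few libraries depend on one another, and those of the HD unstimulated libraries mirror each other. No named gene changed the sign of its log2 difference in any alternative. In CPM, the step upon stimulation differed in the other direction for *Klrb1c* (139.6), *Slc17a6* (7.22), *Slc1a4* (11.6) and *Tnfrsf9* (157); a log2 difference compares folds and a CPM difference compares amounts. Of the called genes, 823 higher and 899 lower kept their sign in CPM. Depth limits genes with a group at few reads.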

Other observations

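Genes outside the lists were named for standing among the 4 largest differences of their class of responses, not of all called genes. *Acp5*, the tartrate-resistant acid phosphatase, fell in naive cells from 70.2 ± 8.35 to 3.39 ± 1.08 CPM and stood at 3.77 ± 0.169 and 4.34 ± 1.39 CPM in HD cells, a difference of 4.53 ± 0.46, adjusted p = 1.94e-05 (limma). *Aoah*, an enzyme that inactivates lipopolysaccharide, fell in both settings and less in HD cells (2.31 ± 0.41, adjusted p = 0.00166). *Nt5e*, which encodes the ectonucleotidase CD73, rose in naive cells from 5.49 ± 1.92 to 108 ± 44.9 CPM and in HD cells from 14.6 ± 0.874 to 29.9 ± 6.22 CPM (-3.22 ± 0.50, adjusted p = 0.00065). *Anxa8*, a calcium-dependent phospholipid-binding protein, had 4 reads over the unstimulated and 2539 over the stimulated HD libraries, and 113 and 88 in naive cells. *Rasa3*, a GTPase-activating protein for RAS and RAP1, fell in both settings and more in HD cells (-2.76 ± 0.36, adjusted p = 0.000194).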
